A study of Mus musculus with 6 samples.

Results

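The enzymes described here build the sugar chains of proteins, and they were taken from the deposited gene table by name. A gene was a member if its row was marked protein_coding and its name began with Alg, Dpm, Mgat, Galnt, B3galt, B4galt, St3gal, St6gal or Fut in the numbered families, or was Rpn1, Rpn2, Ddost, Dad1, Stt3a or Stt3b. This rule used no measured value and found 73 of the 23631 genes of the table, of which 17480 are protein_coding. RNA sequencing of whole liver gave read counts per gene for 6 libraries of male mice of the inbred strain C57BL/6J, with no engineered allele stated in the labels. The 3 libraries of the group called refed carry the label re-fed, and the 3 fasted libraries come from mice without food for 48 h. The treatment protocol speaks of normal feeding, so whether the refed mice had fasted earlier is not settled. The sources used here do not give age, time of day, or whether a library held 1 animal or a pool. P-values therefore reflect the spread between these samples, part or all of which may be technical.

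N-linked glycosylation begins with a sugar chain assembled step by step on the lipid dolichol, in the membrane of the endoplasmic reticulum, by the Alg and Dpm enzymes. The oligosaccharyltransferase complex moves this chain to asparagine residues of growing or finished proteins, and enzymes of the Golgi then trim it, branch it (Mgat) and cap it with galactose (B4galt), sialic acid (St3gal, St6gal) and fucose (Fut). O-linked chains of the mucin type begin in the Golgi with a GalNAc added by the Galnt enzymes. Hepatocytes secrete most plasma proteins, and most of these other than albumin carry N-glycans. Not every member works on proteins: B4galt5 and B4galt6 make lactosylceramide, and St3gal5 makes the ganglioside GM3, both glycolipids.

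The promoters of 5 members are shown because subunits of the transferase were called lower in fasted livers while Stt3b did not pass the test, and because 1 member carries the complete endoplasmic reticulum stress element. That element is CCAAT and CCACG with 9 bases between them, known from promoters of endoplasmic reticulum chaperones and bound there by NF-Y and ATF6. The sequences are the 250 bases before the RefSeq gene start (GRCm38.p6), on the strand of the gene. Alg12 lies at chr15:88819319-88819568, minus strand, and its capitals mark the complete element. Stt3a (chr9:36767623-36767872, minus strand), Stt3b (chr9:115310469-115310718, minus strand) and Rpn1 (chr6:88084223-88084472, plus strand) have capitals at CCAAT and CCACG on either strand. Ddost (chr4:138304488-138304737, plus strand) has capitals at CCAAT alone, on either strand, since these 250 bases hold no CCACG.
Alg12: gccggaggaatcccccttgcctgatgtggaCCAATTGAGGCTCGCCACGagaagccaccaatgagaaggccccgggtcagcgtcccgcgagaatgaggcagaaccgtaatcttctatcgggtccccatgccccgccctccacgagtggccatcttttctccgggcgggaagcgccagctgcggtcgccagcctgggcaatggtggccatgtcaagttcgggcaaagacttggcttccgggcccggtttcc
Stt3a: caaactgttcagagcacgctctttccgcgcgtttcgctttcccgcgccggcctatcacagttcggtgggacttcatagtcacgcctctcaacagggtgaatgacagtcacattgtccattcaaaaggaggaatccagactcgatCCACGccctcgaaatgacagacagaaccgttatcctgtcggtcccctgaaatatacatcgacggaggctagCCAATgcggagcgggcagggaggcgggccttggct
Stt3b: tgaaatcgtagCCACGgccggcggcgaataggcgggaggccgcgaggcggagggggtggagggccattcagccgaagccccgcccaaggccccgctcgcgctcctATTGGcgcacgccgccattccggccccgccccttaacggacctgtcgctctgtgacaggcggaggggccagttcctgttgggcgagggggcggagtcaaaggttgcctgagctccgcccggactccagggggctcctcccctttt
Rpn1: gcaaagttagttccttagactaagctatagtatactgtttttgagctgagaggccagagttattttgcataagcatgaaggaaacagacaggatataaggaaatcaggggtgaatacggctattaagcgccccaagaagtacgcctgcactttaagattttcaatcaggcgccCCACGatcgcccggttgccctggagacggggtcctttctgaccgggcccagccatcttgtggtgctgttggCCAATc
Ddost: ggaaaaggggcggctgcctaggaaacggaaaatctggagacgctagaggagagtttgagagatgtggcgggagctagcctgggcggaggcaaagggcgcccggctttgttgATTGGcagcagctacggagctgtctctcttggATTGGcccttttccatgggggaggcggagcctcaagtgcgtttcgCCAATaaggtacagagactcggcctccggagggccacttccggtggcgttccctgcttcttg

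Windows from 250 bases before to 50 after the start were found for 58 of the 73 members and were searched on both strands. A member was counted if any of its windows matched, whereas the share of all windows counts each window singly. The percentages of members and of windows are therefore not like for like. The complete element occurred in 1 of 58 members (Alg12), or 1.72%, and in 39 of all 32851 windows of the table, or 0.119%. A related element, TGACGTGG, occurred in 0 of 58 members and in 222 windows, or 0.676%. CCAAT and CCACG, the ends of the complete element, occurred together at any spacing in 13 of 58 members (22.4%) and in 3855 windows (11.7%), a search added after the data were seen. Both Stt3a, which was lower in fasted livers, and Stt3b, which did not pass the test, hold the pair. Also among the 13 are Rpn1, Dad1, Alg12 and Ddost, the last with a CCACG that is not within the printed 250 bases. These matches are letters in a window and are not evidence of binding.

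Library totals ranged from 29574528 to 36026753 counts. Levels are CPM, the reads of a gene relative to a library size scaled by TMM factors, and 3 counts, taken as the floor of detection, correspond to 0.0844 to 0.0946 CPM. Where 3 values of a group are given, they stand in the order of replicates 1, 2 and 3. Fasted replicate 3 stood apart: its chi-square per gene was 236 and 211 against fasted replicates 1 and 2, where other pairs within a group lay between 26.8 and 48.6. No pair of libraries was close enough to be a duplicate. Albumin (Alb), the main protein of hepatocytes, had 66730 to 87290 CPM in the 6 libraries and did not pass the test. The 6 hepatocyte markers together summed to 84780 to 101400 CPM in refed and 115000 to 133300 CPM in fasted libraries, without overlap, with 3 higher (Apoa1, Cps1 and Tat) and 1 lower (Ttr). Markers of other cells were present at varying levels. Beside the calls of all these markers stand the shares over all genes tested, 30.2% lower and 29.2% higher. The summed level of 8 Kupffer cell markers was 70.8 to 86.8 CPM in refed and 21.5 to 110.0 CPM in fasted libraries, and 1 of 8 was lower and 0 higher by the test. For 8 stellate cell markers it was 184 to 214 CPM in refed and 320.2 to 437 CPM in fasted libraries, with 2 higher and 1 lower, and for 8 sinusoidal endothelial markers 92.8 to 165 CPM in refed and 106 to 174 CPM in fasted libraries, with 2 higher and 0 lower. Summed over 6 cholangiocyte markers it was 26.3 to 44.5 CPM in refed and 16.1 to 27.9 CPM in fasted libraries, with 2 higher and 1 lower. Without overlap between the groups, the 3 pancreatic acinar markers found in the table summed to 10.4 to 13.8 CPM in refed and 3.08 to 3.57 CPM in fasted libraries, with 1 lower (Cela1) and 0 higher, and the 4 erythroid markers to 157 to 202 CPM in refed and 81.7 to 137 CPM in fasted libraries, with 1 lower (Alas2) and 0 higher. The 6 lymphocyte markers summed to 2.68 to 3.75 CPM in refed and 1.26 to 3.87 CPM in fasted libraries, and the 1 tested did not pass. The 4 neutrophil markers summed to 121.7 CPM in fasted replicate 3 and to at most 1.86 CPM in each other library, and Ly6g was at 0 in all but that library. Of the 2 neutrophil markers tested, 1 was higher (S100a9) and 0 lower, and without fasted replicate 3 1 was higher. What these cells contribute to the members' levels was not tested, and in bulk tissue fewer cells of a type and less RNA per cell cannot be told apart.

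Fasted livers had lower levels than refed livers of most glycosylation enzymes that passed the test. Of the 73 members, 55 had enough reads to be tested, and the quasi-likelihood test of edgeR, with Benjamini-Hochberg adjustment over all 13248 genes tested, found 31 lower and 5 higher, while 19 did not pass. The members lower were 56.4% of the 55, where 30.2% of all genes tested were lower, and the members higher were 9.09%, where 29.2% of all genes were higher. The median log2 fold change, fasted over refed, was -0.63 over the tested members and -0.00 over all genes. At least 2-fold lower were 16 members, and 0 were at least 2-fold higher (17.1% and 14.6% of all genes). All fasted libraries lay below all refed libraries for 34 members and above them for 6, and in 15 the groups overlapped (34.4% below and 32.8% above over all genes, 67.2% either way). Called decreases ran from a log2 fold change of -0.33 to -4.51 and called increases from 0.24 to 0.85. Without fasted replicate 3, 30 members were lower and 6 higher, with a median of -0.65 (32.7% and 31.6% of all genes). Without refed replicate 2, 2 were higher (23.2% of all genes), and 3 without refed replicate 3 (24.9%). With library totals instead of TMM factors, 36 members were lower and 2 higher. The median of all genes then lay at -0.21, with 2873 genes higher (21.7%) and 5074 lower (38.3%), against 3867 and 3999.

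**Figure D1:**
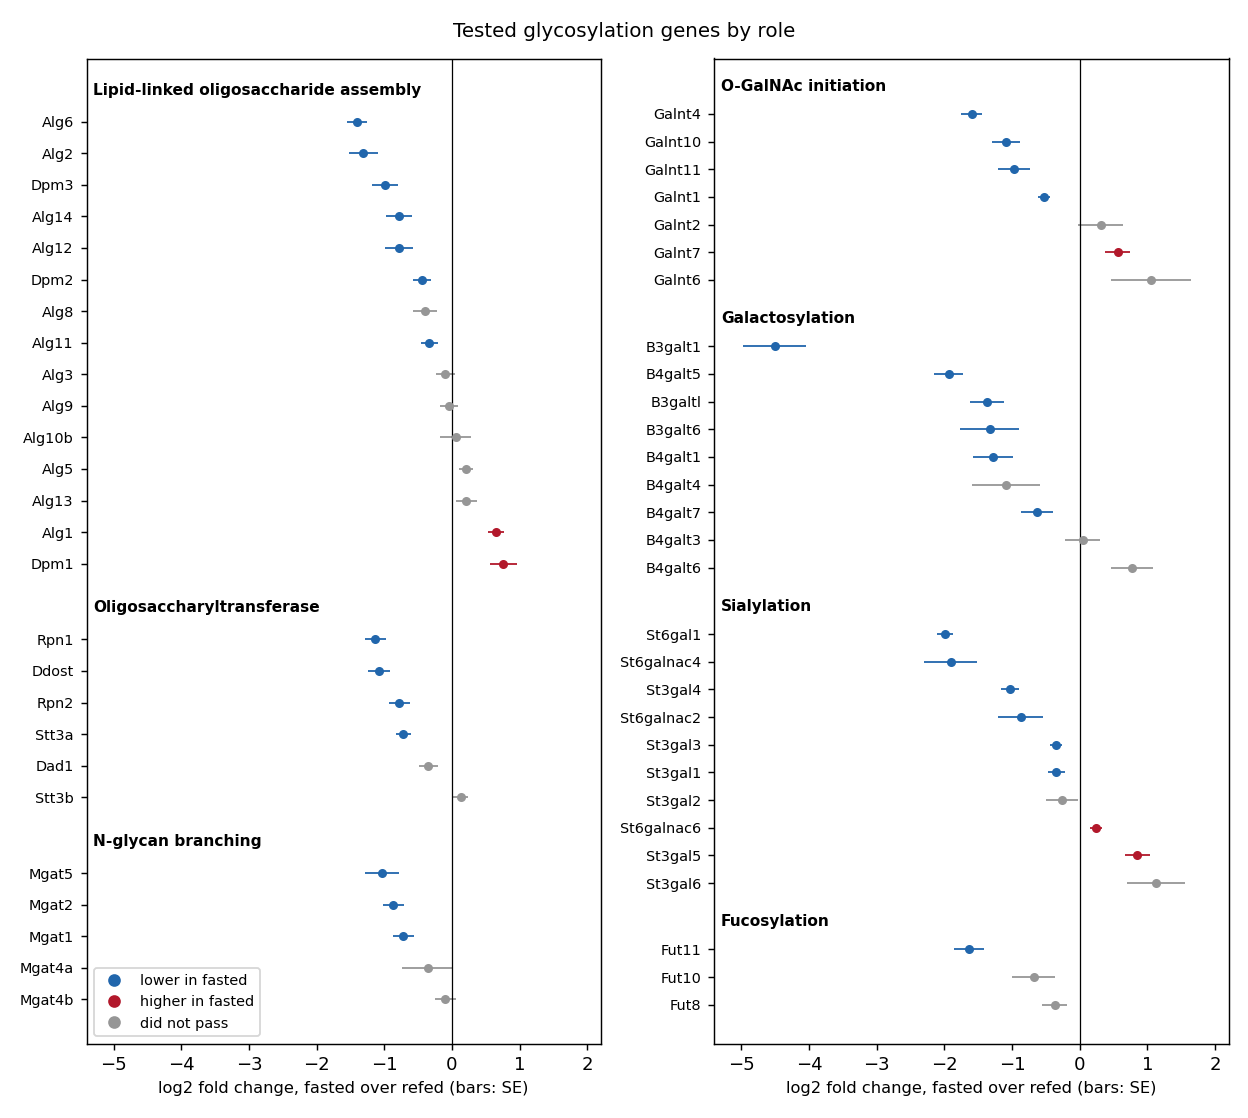
Log2 fold change (fasted over refed) of the 55 tested members with its standard error, ordered within role groups and coloured by the call at an adjusted p of 0.05. Most points lie left of 0, from -4.51 for B3galt1 upward, and the 5 called increases reach 0.85.

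The other 18 members were at or near the floor and were not tested: none had more than 10 reads, or 0.315 CPM, in any library. Mgat3, which adds a bisecting GlcNAc, belongs to these, as do Galnt3, Galnt12, Fut1, Fut2, Fut4 and Fut7. Mgat4c, Galnt13 and St6gal2 had no read in the refed libraries, and Galnt9 had none in the fasted ones. A difference in these members was not detectable at this depth.

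Among the 15 enzymes that assemble the lipid-linked chain, 7 were lower (Alg2, Alg6, Alg11, Alg12, Alg14, Dpm2 and Dpm3), 2 were higher (Alg1 and Dpm1) and 6 did not pass, with a median log2 fold change of -0.33. For this and each later role group, the shares over all genes tested were 30.2% lower and 29.2% higher. Alg2 (ENSMUSG00000039740, chromosome 4 from 47477939 to 47487205, mm9), a mannosyltransferase of the cytosolic face, had 15.0, 16.6 and 23.1 CPM in refed replicates 1, 2 and 3 and 7.5, 8.85 and 5.75 CPM in fasted replicates 1, 2 and 3. Every fasted value was at or below 8.85 CPM and every refed value at or above 15.0 CPM (log2 fold change -1.31 ± 0.21 SE, adjusted p = 0.00108 by edgeR). Alg6 (ENSMUSG00000073792, chromosome 4 from 99382355 to 99430151), which adds the first glucose in the lumen, had 9.65, 9.62 and 10.1 CPM in refed replicates 1, 2 and 3 and 3.63, 4.22 and 3.26 CPM in fasted replicates 1, 2 and 3, with each group within a narrow band and no overlap (log2 fold change -1.40 ± 0.15 SE, adjusted p = 0.000128 by edgeR). Alg1 (ENSMUSG00000039427, chromosome 16 from 5233714 to 5245005), the mannosyltransferase that acts just before Alg2, went the other way, with 18.8, 17.5 and 16.4 CPM in refed and 29.6, 28.4 and 24.8 CPM in fasted libraries. Its fasted libraries all lay above its refed ones (log2 fold change 0.65 ± 0.12 SE, adjusted p = 0.00165 by edgeR). It overlaps Fam86 in the table, so some of its reads may belong there.

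Dolichol-phosphate mannose, the mannose donor in the lumen, is made by Dpm1 with its partners Dpm2 and Dpm3, and the subunits were called in different directions. Dpm1, the catalytic subunit, had 5.74, 4.08 and 4.20 CPM in refed and 8.49, 6.33 and 8.86 CPM in fasted libraries (log2 fold change 0.76 ± 0.20 SE, adjusted p = 0.0114 by edgeR), but it overlaps Mocs3. Dpm3, which tethers Dpm1 to the membrane, had 13.1, 14.8 and 11.1 CPM in refed and 5.61, 5.78 and 8.31 CPM in fasted libraries, with no overlap between the groups (log2 fold change -0.98 ± 0.19 SE, adjusted p = 0.00272 by edgeR). Dpm2, which stabilises Dpm3, had a log2 fold change of -0.44 (edgeR adjusted p = 0.0171). The call of Dpm1 was lost without refed replicate 2 (edgeR adjusted p = 0.0539; 0.00364 to 0.0539 across all alternatives), which left 1 assembly enzyme higher, and that of Dpm2 without any 1 of refed replicates 1 or 2 or fasted replicate 1 (edgeR adjusted p = 0.0565 to 0.0661; 0.00279 to 0.0661 across all alternatives). Alg5, which makes dolichol-phosphate glucose, had 31.1, 30.1 and 28.5 CPM in refed and 31.9, 34.7 and 37.2 CPM in fasted libraries. The fasted values were above the refed ones, by little, and Alg5 did not pass (log2 fold change 0.21 ± 0.10 SE, adjusted p = 0.113 by edgeR).

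The remaining steps varied. Alg14, the membrane anchor of the enzyme that adds the next GlcNAc, had a log2 fold change of -0.79 (edgeR adjusted p = 0.00743), and its catalytic partner Alg13 had 0.21 and did not pass. Alg12, the lumenal mannosyltransferase with the complete stress element printed above, had 12.1, 12.2 and 14.9 CPM in refed and 5.31, 9.01 and 8.56 CPM in fasted libraries (log2 fold change -0.78 ± 0.21 SE, adjusted p = 0.0126 by edgeR). Its call was lost without refed replicate 3 (edgeR adjusted p = 0.0509; 0.00243 to 0.0509 across all alternatives). Alg11, a cytosolic mannosyltransferase, had the smallest called decrease (log2 fold change -0.33 ± 0.12 SE, adjusted p = 0.0421 by edgeR), and its call was lost without any 1 of refed replicates 1, 2 or 3 or fasted replicates 2 or 3 (edgeR adjusted p = 0.0681 to 0.114; 0.00461 to 0.114 across all alternatives). Alg3 and Alg9, mannosyltransferases of the lumen, and the glucosyltransferase Alg10b had log2 fold changes of -0.10, -0.04 and 0.06 and did not pass. Alg8, a glucosyltransferase that follows Alg6, had -0.40 and did not pass, but passed as lower without fasted replicate 1 (edgeR adjusted p = 0.0359; 0.0132 to 0.214 across all alternatives). Fasted replicate 3 was the lowest of the fasted libraries in 10 of these 15 genes, and in 5160 of all 13248 genes tested. Summed over the group, the level was 222, 218 and 236 CPM in refed and 206, 204 and 186 CPM in fasted replicates 1, 2 and 3.

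**Figure D2:**
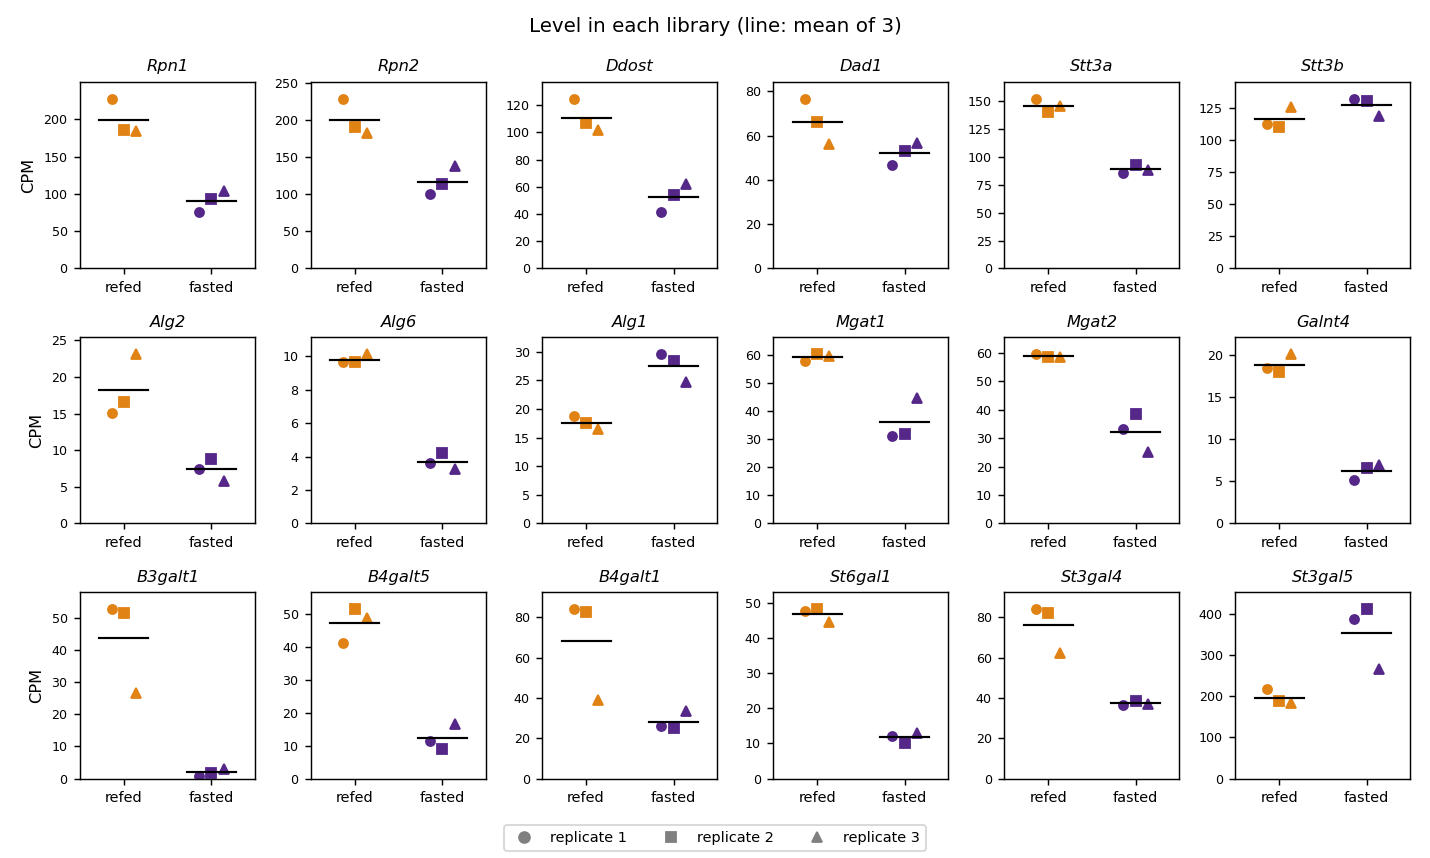
CPM of 18 members in each library, with refed and fasted libraries side by side, marker shape giving the replicate number and a line at the mean of 3. Groups are apart for Stt3a (140.1 to 152 against 85.9 to 92.8 CPM) and St6gal1 (44.6 to 48.1 against 10.2 to 13.1 CPM) and overlap for Stt3b.

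Most subunits of the oligosaccharyltransferase were lower in fasted livers, but not both catalytic ones. Of the 6 subunits in the member list, Rpn1, Rpn2, Ddost and Stt3a were lower, 0 were higher, and Dad1 and Stt3b did not pass, with a median log2 fold change of -0.75. Summed over the 6, the level was 920.4, 800.1 and 797 CPM in refed and 481, 537 and 568 CPM in fasted replicates 1, 2 and 3. Rpn1 (ENSMUSG00000030062, chromosome 6 from 88034467 to 88055298), a scaffold subunit that also binds the translocon, had 227, 186 and 184 CPM in refed replicates 1, 2 and 3 and 75.9, 92.6 and 104 CPM in fasted replicates 1, 2 and 3, and fasted replicate 1 was lowest and refed replicate 1 highest (log2 fold change -1.13 ± 0.16 SE, adjusted p = 0.000449 by edgeR). Ddost (ENSMUSG00000028757, chromosome 4 from 137860645 to 137868543), a subunit needed for a stable complex, had 124, 106 and 102 CPM in refed and 41.1, 54.2 and 62.0 CPM in fasted libraries and the same order of libraries (log2 fold change -1.08 ± 0.17 SE, adjusted p = 0.000777 by edgeR). Rpn2 (ENSMUSG00000027642, chromosome 2 from 157104753 to 157152055), another core subunit, had 228, 191 and 182 CPM in refed and 99.7, 113 and 137 CPM in fasted libraries (log2 fold change -0.78 ± 0.16 SE, adjusted p = 0.00312 by edgeR). It overlaps 4922505G16Rik. Dad1, a small core subunit, had 76.4, 66.2 and 56.4 CPM in refed and 46.6, 53.0 and 56.6 CPM in fasted libraries, so that its groups just overlapped (log2 fold change -0.35 ± 0.14 SE, adjusted p = 0.0576 by edgeR). Dad1 passed as lower without any 1 of refed replicate 3 or fasted replicate 3 (edgeR adjusted p = 0.0249 to 0.027; 0.00945 to 0.192 across all alternatives).

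The 2 catalytic subunits sit in separate complexes: STT3A works with the translocon while a protein is being made, and STT3B acts on sites that were skipped. Stt3a (ENSMUSG00000032116, chromosome 9 from 36538860 to 36575264) had 152, 140.1 and 146 CPM in refed replicates 1, 2 and 3 and 85.9, 92.8 and 87.9 CPM in fasted replicates 1, 2 and 3. Its groups were far apart relative to their spread (log2 fold change -0.72 ± 0.11 SE, adjusted p = 0.000612 by edgeR; from -0.76 to -0.69 with 1 library left out). Stt3b (ENSMUSG00000032437, chromosome 9 from 115151725 to 115219539) had 113, 110.5 and 126 CPM in refed replicates 1, 2 and 3 and 132, 131 and 119.5 CPM in fasted replicates 1, 2 and 3. These values overlapped, and Stt3b did not pass (log2 fold change 0.13 ± 0.11 SE, adjusted p = 0.348 by edgeR). The ratio of Stt3a to Stt3b in CPM was 1.34, 1.27 and 1.16 in refed replicates 1, 2 and 3 and 0.650, 0.709 and 0.736 in fasted replicates 1, 2 and 3. On the log2 scale the ratio went from 0.33 ± 0.11 to -0.52 ± 0.09 (SD, n = 3), a difference of -0.85. An exact two-sided permutation test over the 6 libraries gave p = 0.1, the smallest it can give (adjusted p = 0.133 over 4 ratios). A ratio within a library does not depend on the scaling between libraries.

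Other subunits of these complexes were looked up outside the member list. Of 5 found in the table, 4 were lower, 0 higher and 1 did not pass, with a median log2 fold change of -0.995. Over all genes tested, the shares were 30.2% lower and 29.2% higher. Ostc, a subunit of the STT3A complex, fell from 71.2 ± 5.11 CPM in refed to 13.1 ± 3.51 CPM in fasted livers (SD, n = 3 each; log2 fold change -2.44 ± 0.19 SE, adjusted p = 3.41e-05 by edgeR), and Krtcap2, of the same complex, had a log2 fold change of -0.99 (edgeR adjusted p = 0.000849). Magt1, an oxidoreductase subunit of the STT3B complex, fell from 121 ± 10.7 CPM in refed to 31.5 ± 6.81 CPM in fasted livers (SD, n = 3 each; log2 fold change -1.94 ± 0.17 SE, adjusted p = 4.58e-05 by edgeR), whereas its paralog Tusc3 had a log2 fold change of 0.10 and did not pass. Ost4, a small subunit of both complexes, had -0.67 (edgeR adjusted p = 0.0114). Tmem258 was not analysed here. Lower levels were thus measured for subunits of both complexes, while Stt3b itself did not pass.

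**Figure D3:**
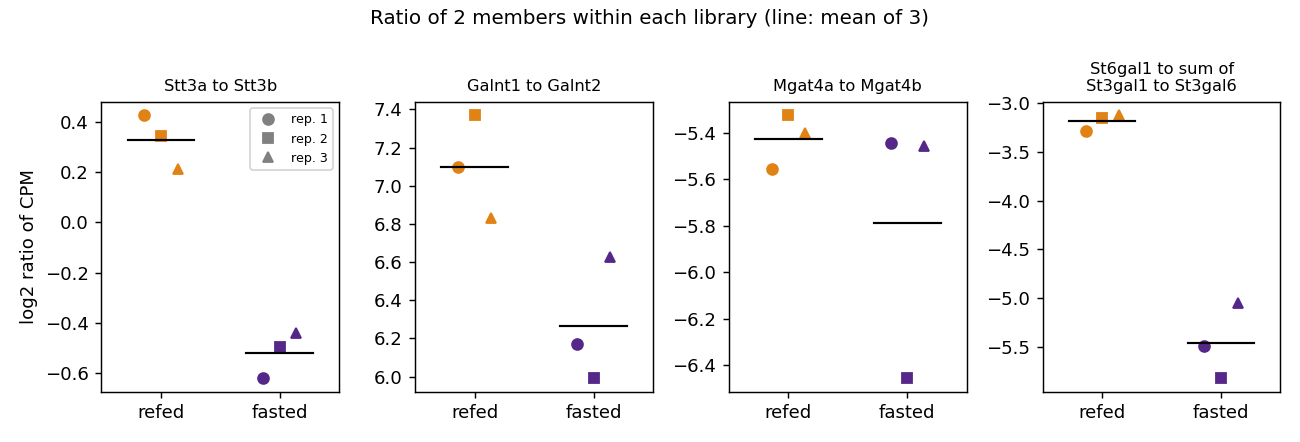
Log2 ratio of CPM between members in each library for 4 pairs or sums, with refed and fasted libraries side by side. The ratios Stt3a to Stt3b, Galnt1 to Galnt2 and St6gal1 to the sum of St3gal1 to St3gal6 do not overlap between groups, and Mgat4a to Mgat4b does.

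Of 5 tested enzymes that open N-glycan branches in the Golgi, 3 were lower (Mgat1, Mgat2 and Mgat5), 0 higher and 2 did not pass. Their median log2 fold change was -0.72, and the same number was called with each single library left out. Mgat1 (ENSMUSG00000020346, chromosome 11 from 49057693 to 49076532), which starts hybrid and complex chains, had 57.7, 60.1 and 59.4 CPM in refed and 31.2, 31.9 and 44.7 CPM in fasted libraries, and fasted replicate 3 was nearest to the refed values (log2 fold change -0.72 ± 0.15 SE, adjusted p = 0.00365 by edgeR). Mgat2 (ENSMUSG00000043998, chromosome 12 from 70285145 to 70287759), which acts next and is needed for complex chains, had 59.5, 58.3 and 58.5 CPM in refed and 33.4, 38.4 and 25.1 CPM in fasted libraries, with fasted replicate 3 the lowest (log2 fold change -0.86 ± 0.15 SE, adjusted p = 0.0016 by edgeR). It overlaps 1110034A24Rik. Mgat5, which adds a further branch recognised by galectins, was low, at 1.89, 2.79 and 3.07 CPM in refed and 1.32, 1.40 and 1.07 CPM in fasted libraries (log2 fold change -1.03 ± 0.26 SE, adjusted p = 0.00831 by edgeR). The related Mgat4a and Mgat4b, which add another branch, did not pass, with log2 fold changes of -0.36 and -0.10. The log2 ratio of Mgat4a to Mgat4b was -5.43 ± 0.12 in refed livers and -5.79 ± 0.58 in fasted ones (SD, n = 3 per group; exact two-sided permutation p = 0.4), so Mgat4b held most of the reads in both groups.

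Most reads of the Galnt family, which starts O-GalNAc chains, came from Galnt1 in these livers. Of 12 Galnt members 7 were tested, with 4 lower (Galnt1, Galnt4, Galnt10 and Galnt11), 1 higher (Galnt7), 2 that did not pass and a median log2 fold change of -0.53. Galnt1 (ENSMUSG00000000420, chromosome 18 from 24363845 to 24445319), a broad-specificity enzyme, had 60.5, 60.6 and 64.6 CPM in refed replicates 1, 2 and 3 and 43.2, 43.4 and 42.1 CPM in fasted replicates 1, 2 and 3, a small difference with a narrow spread (log2 fold change -0.53 ± 0.09 SE, adjusted p = 0.00155 by edgeR). Galnt4 had 18.5, 18.0 and 20.1 CPM in refed and 5.16, 6.58 and 6.94 CPM in fasted libraries and the lowest p of the family (log2 fold change -1.60 ± 0.15 SE, adjusted p = 6.66e-05 by edgeR). It overlaps Poc1b, so its reads may be shared. Galnt10, which prefers peptides that already carry a GalNAc, had 6.97, 5.29 and 5.25 CPM in refed and 3.21, 2.86 and 2.16 CPM in fasted libraries (log2 fold change -1.09 ± 0.21 SE, adjusted p = 0.00249 by edgeR), and Galnt11, known to modify receptors of the LDL receptor family, had a log2 fold change of -0.97 (edgeR adjusted p = 0.00819). Galnt7, another enzyme that prefers glycosylated peptides, had 3.72, 3.01 and 3.35 CPM in refed and 5.79, 5.0 and 4.08 CPM in fasted libraries (log2 fold change 0.56 ± 0.19 SE, adjusted p = 0.032 by edgeR). Its call was lost without any 1 of refed replicates 2 or 3 or fasted replicates 1 or 2 (edgeR adjusted p = 0.0702 to 0.126; 0.00785 to 0.14 across all alternatives), and without refed replicate 2, refed replicate 3 or fasted replicate 2 no Galnt member was higher. Galnt2 had at most 0.683 CPM and did not pass, and it overlaps 1810008B01Rik and Gm15775. Galnt6 had 0.252, 0.366 and 0.284 CPM in refed and 0.240, 0.435 and 1.22 CPM in fasted libraries, highest in fasted replicate 3, and did not pass with all libraries (edgeR adjusted p = 0.157). It passed as higher without fasted replicate 1 (edgeR adjusted p = 0.044; 0.044 to 0.772 across all alternatives). The log2 ratio of Galnt1 to Galnt2 was 7.10 ± 0.27 in refed livers and 6.26 ± 0.33 in fasted ones (SD, n = 3 per group; exact two-sided permutation p = 0.1, the smallest possible; adjusted p = 0.133 over 4 ratios).

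The B3galt and B4galt members had the lowest median of the role groups, at a log2 fold change of -1.28. They are galactosyltransferases, except that B3galtl is a glucosyltransferase which the rule took in by its name. Of 9 tested members, 6 were lower (B3galt1, B3galt6, B3galtl, B4galt1, B4galt5 and B4galt7), 0 higher and 3 did not pass. B3galt1 (ENSMUSG00000034780, chromosome 2 from 67942728 to 67960746), which adds galactose to GlcNAc in type I chains, had 52.6, 51.6 and 26.7 CPM in refed replicates 1, 2 and 3 and 0.870, 1.77 and 3.11 CPM in fasted replicates 1, 2 and 3. Refed replicate 3 was the lowest refed library, yet it lay far above every fasted one (log2 fold change -4.51 ± 0.47 SE, adjusted p = 0.000182 by edgeR; from -5.05 to -4.15 with 1 library left out). B4galt5 (ENSMUSG00000017929, chromosome 2 from 167123944 to 167174683), a lactosylceramide synthase, had 41.0, 51.3 and 48.8 CPM in refed replicates 1, 2 and 3 and 11.3, 9.04 and 16.5 CPM in fasted replicates 1, 2 and 3 (log2 fold change -1.94 ± 0.22 SE, adjusted p = 0.000205 by edgeR). B4galt6, the other member that makes lactosylceramide, had 1.04, 0.872 and 0.738 CPM in refed and 1.62, 0.994 and 1.92 CPM in fasted libraries and did not pass (edgeR adjusted p = 0.0604). It passed as higher without fasted replicate 2 (edgeR adjusted p = 0.0216; 0.0216 to 0.171 across all alternatives). B4galt1 (ENSMUSG00000028413, chromosome 4 from 40751635 to 40801038), the main galactosyltransferase of N-glycans, had 83.9, 82.5 and 38.8 CPM in refed replicates 1, 2 and 3 and 25.9, 25.1 and 33.4 CPM in fasted replicates 1, 2 and 3. Refed replicate 3 was closer to the fasted libraries than to the other refed ones, but the groups did not overlap (log2 fold change -1.28 ± 0.29 SE, adjusted p = 0.00675 by edgeR; without fasted replicate 3 -1.42).

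The enzymes of the linker that joins glycosaminoglycans to proteoglycans, B4galt7 and B3galt6, were lower by the test, but with calls that depended on single libraries. B4galt7 had 11.8, 12.9 and 11.8 CPM in refed and 5.88, 6.49 and 11.1 CPM in fasted libraries (log2 fold change -0.63 ± 0.24 SE, adjusted p = 0.0475 by edgeR), with fasted replicate 3 near the refed values, and its call was lost without any 1 of refed replicates 1, 2 or 3 or fasted replicates 1 or 2 (edgeR adjusted p = 0.085 to 0.146; 0.000189 to 0.146 across all alternatives). B3galt6 had 3.91, 4.95 and 3.32 CPM in refed and 1.05, 0.900 and 2.89 CPM in fasted libraries (log2 fold change -1.33 ± 0.43 SE, adjusted p = 0.03 by edgeR), again with fasted replicate 3 highest. The log2 fold change of B3galt6 was -2.05 without fasted replicate 3, and its call was lost without any 1 of refed replicates 1 or 2 or fasted replicates 1 or 2 (edgeR adjusted p = 0.0622 to 0.0922; 0.000105 to 0.0922 across all alternatives). B3galtl, which adds glucose to O-fucose on thrombospondin repeats, had 1.77, 1.38 and 1.59 CPM in refed and 0.660, 0.621 and 0.548 CPM in fasted libraries (log2 fold change -1.36 ± 0.25 SE, adjusted p = 0.00194 by edgeR). B4galt3, which also acts on N-glycans, had 5.49, 5.40 and 4.0 CPM in refed and 5.40, 3.42 and 6.52 CPM in fasted libraries, overlaps Ppox and did not pass. B4galt4 had a log2 fold change of -1.09, did not pass (edgeR adjusted p = 0.09), and passed as lower without fasted replicate 2 (edgeR adjusted p = 0.0354; 0.0354 to 0.307 across all alternatives). Fasted replicate 3 was the highest fasted library in 7 of the 9 tested members of this group, and in 5371 of all 13248 genes tested. Summed levels were 202, 212 and 137 CPM in refed and 53.0, 49.1 and 76.7 CPM in fasted replicates 1, 2 and 3. With fasted replicate 2 left out, 1 member of this group was higher.

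Sialyltransferases went in both directions. Of 10 tested members, 6 were lower (St6gal1, St3gal1, St3gal3, St3gal4, St6galnac2 and St6galnac4), 2 were higher (St3gal5 and St6galnac6) and 2 did not pass, with a median log2 fold change of -0.35. St6gal1 (ENSMUSG00000022885, chromosome 16 from 23224813 to 23360421), which caps N-glycans of plasma proteins with sialic acid and is also shed from hepatocytes, had 47.6, 48.1 and 44.6 CPM in refed replicates 1, 2 and 3 and 12.1, 10.2 and 13.1 CPM in fasted replicates 1, 2 and 3. The groups were far apart with little spread in each (log2 fold change -1.99 ± 0.12 SE, adjusted p = 1.11e-05 by edgeR; 3.97-fold lower), and this was the lowest p among the members. It overlaps BC106179. St3gal4 (ENSMUSG00000032038, chromosome 9 from 34854164 to 34924395), which sialylates N-glycans in another linkage, had 84.0, 81.9 and 62.4 CPM in refed and 36.5, 38.6 and 36.8 CPM in fasted libraries (log2 fold change -1.03 ± 0.13 SE, adjusted p = 0.000324 by edgeR). St3gal3, with a related acceptor range, had 57.1, 54.4 and 55.5 CPM in refed and 41.9, 43.7 and 45.2 CPM in fasted libraries, a smaller difference (log2 fold change -0.35 ± 0.09 SE, adjusted p = 0.0116 by edgeR). St3gal1, which sialylates core O-glycans, had 105, 101 and 85.8 CPM in refed and 70.6, 76.8 and 82.4 CPM in fasted libraries (log2 fold change -0.34 ± 0.12 SE, adjusted p = 0.0377 by edgeR), and its call was lost without any 1 of refed replicates 1 or 2 or fasted replicates 1 or 2 (edgeR adjusted p = 0.0896 to 0.128; 0.00527 to 0.128 across all alternatives).

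St3gal5 (ENSMUSG00000056091, chromosome 6 from 72047607 to 72104564), the GM3 synthase, was the member with the largest called increase, at 218, 189 and 183 CPM in refed replicates 1, 2 and 3 and 387, 411 and 266 CPM in fasted replicates 1, 2 and 3. All fasted values lay above all refed ones, and fasted replicate 3 was nearest to them (log2 fold change 0.85 ± 0.18 SE, adjusted p = 0.00447 by edgeR; without fasted replicate 3 1.02). The summed level of the group, of which St3gal5 was the largest part, was 564, 529 and 483 CPM in refed and 609, 644 and 504 CPM in fasted replicates 1, 2 and 3 and overlapped between groups. St6galnac6, which acts on gangliosides, had 46.9, 49.8 and 47.4 CPM in refed and 56.6, 56.9 and 57.0 CPM in fasted libraries (log2 fold change 0.24 ± 0.09 SE, adjusted p = 0.048 by edgeR), and its call was lost without any 1 of refed replicates 1, 2 or 3 or fasted replicates 1 or 2 (edgeR adjusted p = 0.0853 to 0.159; 0.0377 to 0.793 across all alternatives). St3gal6 had 1.32, 1.29 and 1.70 CPM in refed and 3.24, 4.91 and 1.34 CPM in fasted libraries. Fasted replicate 3 lay among the refed values, and St3gal6 did not pass (log2 fold change 1.13 ± 0.43 SE, adjusted p = 0.0536 by edgeR). It passed as higher without fasted replicate 3 (edgeR adjusted p = 0.000549; 0.000549 to 0.186 across all alternatives), with a log2 fold change of 1.5. Leaving out any 1 library other than fasted replicate 3 left 1 sialyltransferase higher. St6galnac4, an O-glycan sialyltransferase, had 1.73, 1.29 and 0.795 CPM in refed and 0.240, 0.435 and 0.335 CPM in fasted libraries (log2 fold change -1.91 ± 0.39 SE, adjusted p = 0.00335 by edgeR). St6galnac2, of the same kind, had 0.505, 0.478 and 0.369 CPM in refed and 0.270, 0.217 and 0.244 CPM in fasted libraries, and its call was lost without any 1 of the 6 libraries (edgeR adjusted p = 0.0584 to 0.141; 0.0213 to 0.215 across all alternatives). The log2 ratio of St6gal1 to the sum of St3gal1 to St3gal6 was -3.29, -3.16 and -3.13 in refed and -5.49, -5.82 and -5.05 in fasted replicates 1, 2 and 3. This difference of -2.26 had an exact two-sided permutation p = 0.1, the smallest possible (adjusted p = 0.133 over 4 ratios). St3gal5, the glycolipid enzyme called higher, held on average 196.8 of the 428.5 CPM of that sum in refed livers. In fasted livers it held 354.5 of 516.3 CPM, while St3gal1, St3gal3 and St3gal4 were called lower. The ratio therefore does not describe enzymes of proteins alone.

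Fucosyltransferases were scarce. Of 7 members 3 were tested, and 1 was lower (Fut11), 0 were higher and 2 did not pass, with a median log2 fold change of -0.68. Fut11, a member of the family by sequence, had 3.34, 3.35 and 3.63 CPM in refed and 1.02, 0.931 and 1.37 CPM in fasted libraries (log2 fold change -1.63 ± 0.22 SE, adjusted p = 0.000393 by edgeR). Fut8, which adds the core fucose of N-glycans, had 3.41, 3.52 and 3.52 CPM in refed and 2.28, 2.70 and 3.11 CPM in fasted libraries. All fasted values of Fut8 were below the refed ones, but it did not pass (log2 fold change -0.37 ± 0.18 SE, adjusted p = 0.117 by edgeR). Fut10 had 0.410, 0.422 and 0.398 CPM in refed and 0.270, 0.248 and 0.244 CPM in fasted libraries and did not pass (edgeR adjusted p = 0.0906). With library totals, all 3 were lower.

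Levels between genes were compared per kb of the longest coding transcript of GENCODE M21. On this scale, CPM per kb, the highest member of each role group was Alg5, Rpn2, Mgat2, Galnt1, B4galt1, St3gal5 and Fut8. St3gal5 had 80.7 ± 7.77 in refed and 145 ± 31.9 in fasted livers, and Rpn2 had 72.7 ± 8.78 and 42.4 ± 6.93 (SD, n = 3). Mgat2 had 22.5 ± 0.225 and 12.3 ± 2.56, B4galt1 17.2 ± 6.44 and 7.07 ± 1.15, and Fut8 1.04 ± 0.0195 and 0.803 ± 0.123 CPM per kb (SD, n = 3). Alg5 had 20.3 ± 0.878 and 23.5 ± 1.79 and Galnt1 15.1 ± 0.564 and 10.4 ± 0.167 CPM per kb (SD, n = 3). Such an order depends on the length used, a choice made after the data were seen. The refed level of Stt3a over Stt3b was 0.902 per kb of the GENCODE transcript and 7.72 per kb of the deposited gene length. No order between these 2 genes is given. Per kb of deposited length, Mgat1 had 93.3 CPM in refed and 56.8 CPM in fasted livers, above Mgat2 at 23.4 and 12.8 CPM. B4galt5 had 119.6 and 31.3 CPM, above B4galt1 at 25.35 and 10.4 CPM. Mgat2 and B4galt1 were thus highest only with the GENCODE length.

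**Figure D4:**
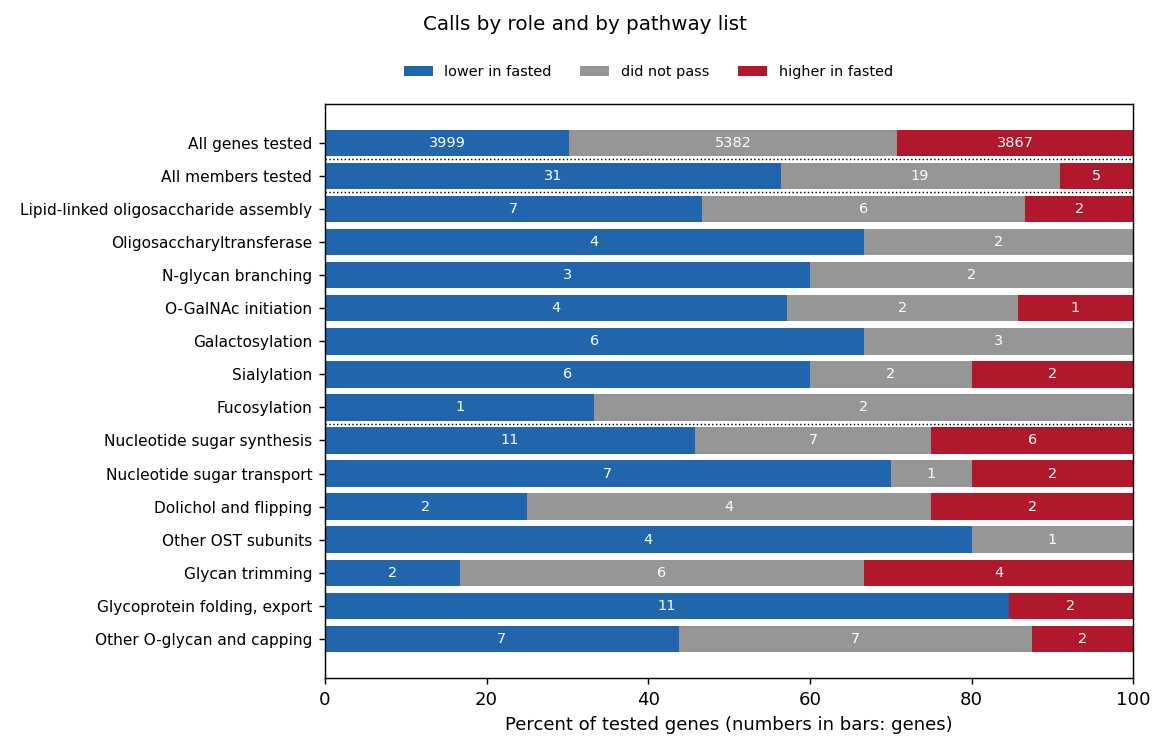
Percent of tested genes called higher, called lower or not called in fasted livers, for all genes, the members, the 7 role groups and the 7 lists of other pathway genes. Members lower make 56.4% against 30.2% of all genes, and members higher 9.09% against 29.2%.

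The genes that supply these enzymes with sugars were read from further lists. Beside the counts of each list stand the shares over all genes tested, 30.2% lower and 29.2% higher. Of 24 genes that make nucleotide sugars, all tested, 11 were lower, 6 higher and 7 did not pass (median log2 fold change -0.38). Gmppb, which makes GDP-mannose for the Alg and Dpm steps, fell from 33.9 ± 2.60 CPM in refed to 7.06 ± 1.15 CPM in fasted livers (SD, n = 3 each; log2 fold change -2.26 ± 0.15 SE, adjusted p = 1.45e-05 by edgeR). Genes of UDP-GlcNAc synthesis went in both directions. Gfpt1, an entry enzyme, had a log2 fold change of -1.72 (edgeR adjusted p = 0.000926). Gfpt2, the other entry enzyme, had 1.90 (edgeR adjusted p = 0.00563) at low mean levels, 0.221 CPM in refed and 0.841 CPM in fasted livers. Of later enzymes of that route, Gnpnat1 and Pgm3 had 0.79 and 1.12 (edgeR adjusted p = 0.000672 and 0.00238). Uap1, also later, had -0.37 (edgeR adjusted p = 0.0464) and did not pass without refed replicate 3 (edgeR adjusted p = 0.142). Genes of CMP-sialic acid synthesis were mixed: Nans had -1.57 (edgeR adjusted p = 0.0014), and Gne and Cmas did not pass (-0.52 and -0.39).

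Of 10 Golgi and endoplasmic reticulum carriers of nucleotide sugars, 7 were lower, 2 higher (Slc35a4 and Slc35c2) and 1 did not pass (median -0.81). Slc35b4, a carrier of UDP-GlcNAc and UDP-xylose, fell from 31.8 ± 2.42 CPM in refed to 2.72 ± 0.920 CPM in fasted livers (SD, n = 3 each; log2 fold change -3.55 ± 0.25 SE, adjusted p = 2.11e-05 by edgeR), and Slc35a1, the carrier of CMP-sialic acid, fell from 25.7 ± 1.45 CPM in refed to 9.70 ± 0.343 CPM in fasted livers (SD, n = 3 each; log2 fold change -1.41 ± 0.11 SE, adjusted p = 2.97e-05 by edgeR). Slc35a4 had a log2 fold change of 0.76 (edgeR adjusted p = 0.00189). Leaving out refed replicate 2 or 3 or fasted replicate 1 or 2 left 1 carrier higher. Of 8 genes of dolichol supply and flipping, 2 were lower (Dhdds and Dpagt1), 2 higher (Mpdu1 among them) and 4 did not pass (median -0.00). Both counts are near the shares over all genes tested (30.2% lower and 29.2% higher). Dhdds, the prenyltransferase of dolichol synthesis, had -0.86 (edgeR adjusted p = 0.00173), and Dpagt1, which starts the lipid-linked chain, -0.65 (edgeR adjusted p = 0.00317). Mpdu1, needed to use dolichol-phosphate sugars, had 0.64 (edgeR adjusted p = 0.00134). Without refed replicate 1 or 2, 1 of this list was higher.

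After transfer, the chain is trimmed and read by folding lectins. Of 12 trimming genes 2 were lower (Mogs and Man1b1), 4 higher (Manea, Prkcsh, Man2a1 and Ngly1) and 6 did not pass (median 0.16). The count higher is near the share over all genes tested (29.2%), and the count lower is below its share (30.2%). Mogs, the glucosidase that makes the first cut, had -0.87 (edgeR adjusted p = 0.000213), and Manea, an endomannosidase, 0.76 (edgeR adjusted p = 0.000968). Without refed replicate 2, 2 were higher and 1 lower. Of 13 genes of glycoprotein folding, disposal and export, 11 were lower, 2 higher (Erlec1 and Os9, both lectins of disposal) and 0 did not pass (median -0.93). Uggt1, which puts glucose back on misfolded glycoproteins, fell from 110.3 ± 5.77 CPM in refed to 49.4 ± 4.49 CPM in fasted livers (SD, n = 3 each; log2 fold change -1.16 ± 0.11 SE, adjusted p = 8.37e-05 by edgeR), and the lectin chaperone Canx fell from 436 ± 25.9 CPM in refed to 181 ± 34.0 CPM in fasted livers (SD, n = 3 each; log2 fold change -1.27 ± 0.16 SE, adjusted p = 0.000305 by edgeR). Erlec1 had 0.80 (edgeR adjusted p = 0.000521). Without refed replicate 2 or 3, 1 of this list was higher.

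Among other O-linked and capping enzymes, 16 of 24 rows were tested, and 7 were lower, 2 higher (Mgea5 and B3gnt8) and 7 did not pass (median -0.37). Over all genes tested the shares were 30.2% lower and 29.2% higher. C1galt1, which extends the GalNAc set by the Galnt enzymes, had -1.14 (edgeR adjusted p = 0.000863). Ogt, which adds GlcNAc to proteins of nucleus and cytosol, fell from 56.0 ± 5.12 CPM in refed to 25.1 ± 4.38 CPM in fasted livers (SD, n = 3 each; log2 fold change -1.16 ± 0.15 SE, adjusted p = 0.000291 by edgeR), and Mgea5, the hydrolase that removes it, rose from 36.1 ± 7.58 CPM in refed to 78.7 ± 10.8 CPM in fasted livers (SD, n = 3 each; log2 fold change 1.12 ± 0.17 SE, adjusted p = 0.000731 by edgeR). Without refed replicate 1 or 3 or fasted replicate 3, 1 of this list was higher.

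In the authors' deposited table, 29 members were lower and 7 higher at an adjusted p under 0.05, where 19.6% and 19.8% of all genes with a value were. Of the calls made here, 34 were made there with the same sign and 0 with the other sign. B4galt6 and St3gal6 were called in the authors' deposited table (adjusted p = 0.0481 and 0.0499) and not here, and B4galt7 and St6galnac2 were called here and not in the authors' deposited table (adjusted p = 0.0534 and 0.0968). Of the 31 members lower here, 24 passed with each single library left out, and of the 5 higher, 2 did (Alg1 and St3gal5). Among the 31, fasted replicate 3 was the highest fasted library in 16 and the lowest in 9. Over all 13248 genes tested, it was the highest in 5371 and the lowest in 5160. Another gene of the table overlaps 31 of the 73 members, and the sources used here do not state how strands were handled, so reads of such pairs may be mixed. This holds also for members described above without that remark, among them Galnt1, Galnt7, Galnt10, B4galt1, St3gal3, St3gal4, St3gal6, St6galnac4 and Fut11.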

How the data were processed

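The authors deposited raw read counts of each gene for 6 libraries, per the file headers, and these whole numbers were analysed here. A normalized signal, and that signal per kb of gene length, were also deposited by the authors, per the file headers, and served only as an alternative for ratios and levels. The same deposited table holds a log2 fold change, a p-value and an adjusted p-value of the authors, per the file headers. Of upstream tools, the submitters' processing notes list HTSeq 0.5.4p3, TopHat2 2.0.10, DESeq2 1.0.19 and Bowtie2 2.1.0, with the build mm9 and no roles. Counting settings were not given in the sources used here.

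Counts were fitted with edgeR 4.0.16 in R 4.3.3 (filterByExpr with a minimum count of 10, TMM, robust quasi-likelihood, group as the only term), which tested 13248 genes and left out 10383. Adjustment was by Benjamini-Hochberg over these genes, and calls were made at 0.05. The standard error was obtained from the log2 fold change and the F statistic. The procedure was tested on simulated data. Ratios were tested by exact permutation (scipy 1.17.1). Gene coordinates are mm9, from the deposited table, and promoters are RefSeq on GRCm38.p6. Deposited lengths had a median of 0.626 of the longest coding GENCODE M21 transcript over the members.

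Members and lists were chosen with earlier results of these data known. Named genes were the markers Stt3a and Alg2, up to 3 called members with the lowest p per direction and the highest level per kb in each role group, the 3 highest and 3 lowest called changes, and the called gene with the lowest p per direction in each other list. Other genes were named after their values were seen. Results for some list genes are not reported here. Alternatives were DESeq2 1.42.0, limma-voom (limma 3.58.1), other scalings and filters, a block for the replicate number, and leaving out each library. The floor of 3 counts covers counting error only.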

Additional observations from a re-analysis of the deposited data

How the results depend on the processing

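Of the 41 named genes, 36 kept their direction and their side of the threshold under all alternatives. Alg5, not called, reversed to a log2 fold change of -0.0018 with library totals (0.21 with TMM). Library totals gave 2 members higher (21.7% of all genes) and a median of -0.84, and no count filter gave 3 higher (17.3% of all genes). Leaving out 1 library gave 2 to 6 higher, 25 to 30 lower and a median of -0.67 to -0.53. The shares over all genes then ranged from 23.2% to 31.6% higher and from 25.1% to 32.7% lower. By role with library totals, 1 assembly enzyme, 0 Galnt members and 1 sialyltransferase were higher and 3 fucosyltransferases lower. No filter gave 0 Galnt members and 1 sialyltransferase higher, and limma-voom 1 sialyltransferase. With 1 library left out, 1 to 2 assembly enzymes, 0 to 1 Galnt members, 0 to 1 B3galt and B4galt members and 1 to 3 sialyltransferases were higher. In the other lists, library totals gave 1 carrier, 1 dolichol gene, 2 trimming genes and 1 folding gene higher, and 4 dolichol and 4 trimming genes lower. DESeq2 and no filter gave 1 carrier higher, and DESeq2 and a mean of at least 1 CPM gave 1 gene of other O-linked enzymes higher. With 1 library left out, 1 to 2 carriers, 1 to 2 dolichol genes, 2 to 4 trimming genes, 1 to 2 folding genes and 1 to 2 of the other O-linked enzymes were higher, and 1 to 2 trimming genes lower. Fewer samples enter those fits; for the other changes the cause was not tested. Stt3a over Stt3b per kb moved from 0.902 to 7.72 with deposited lengths.

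Whether replicate numbers pair the samples was not settled. Deviations of same-numbered libraries correlated weakly, at -0.04, -0.04 and -0.09. These values cannot exclude pairing, because the groups are small and a fasted library that stood apart shapes the deviations of its group. With the replicate block 28 members were lower and 4 higher, 1 sialyltransferase and 1 carrier were higher, and all genes gave 3558 higher and 3782 lower. Depth limits the 18 untested members.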
